A study of Mus musculus with 12 samples.

Results

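The genes described here are 10 interferon-induced genes: Pml, Sp100 and Sp110, whose proteins belong to nuclear bodies, and Ifi203, Ifi204, Ifi27, Ifi35, Rtp4, Parp14 and Samd9l. They were selected on earlier results of these arrays: the members were chosen by their lower intensity in MLL1-KO than in wild-type cells, and Samd9l also by its rise with time in MLL1-KO. Of the 10, 8 had a probe set annotated to that gene alone, among 19938 genes with such a probe set. Sp110 and Ifi204 were only on probe sets annotated to several genes and have no value of their own.

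The study put total RNA of mouse embryonic fibroblasts (MEF), which are connective tissue cells taken from embryos, on 12 Affymetrix arrays. The groups were MLL1-KO at 30 h, MLL1-KO at 18 h, wild type (WT) at 30 h and WT at 18 h, with 3 arrays each. MLL1, encoded by Kmt2a, is a histone H3 lysine methyltransferase. All groups grew in DMEM with 5% FBS and 5% NCS and had a serum shock, 50% horse serum for 2 h, which aligns the circadian clocks of cultured cells; times are counted in hours after it. The labels name neither the strain, the part of the gene that was disrupted, nor the number of embryos or lines behind each genotype. They also do not say whether the replicates came from separate cultures, and every p-value therefore reflects array-to-array spread that may be technical.

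Type I interferons bind a receptor at the cell surface, whose kinases Jak1 and Tyk2 start a signal to the nucleus. Stat2 and Irf9 take part in a complex that binds interferon-stimulated response elements in promoters and switches on a large set of antiviral genes. Fibroblasts make interferon when they sense viral nucleic acid and keep a low constant signal otherwise. Several products of these genes act in the nucleus: Pml builds nuclear bodies in which Sp100 and partners modified by SUMO gather, and the Ifi200 proteins bind DNA.

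RefSeq (GRCm38.p6) listed promoters, from 250 bases before to 50 after a transcript start, for 6 of the 10 genes, with 9 windows of 300 bases in all. None was listed for Ifi204, Ifi27, Rtp4 or Parp14. The response element (GAAA, any 2 bases, GAAA), searched on both strands, was in 1 of the 6 genes, Ifi203, against 3.99% of 27025 genes with such a window. A second interferon-related motif, TTCNNNGAA, was in 1 of the 6, Ifi35, against 9.55% of genes. Both are shown because they hold these matches, in capitals, and both are printed in the direction of transcription.
Ifi203, chr1:173942443-173942742, minus strand: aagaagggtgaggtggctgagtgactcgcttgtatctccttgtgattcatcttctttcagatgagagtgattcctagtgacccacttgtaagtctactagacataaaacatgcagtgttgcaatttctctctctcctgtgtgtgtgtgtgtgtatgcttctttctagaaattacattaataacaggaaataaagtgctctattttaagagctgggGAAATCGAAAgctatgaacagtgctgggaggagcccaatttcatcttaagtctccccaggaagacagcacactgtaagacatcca
Ifi35, chr11:101448162-101448461, plus strand: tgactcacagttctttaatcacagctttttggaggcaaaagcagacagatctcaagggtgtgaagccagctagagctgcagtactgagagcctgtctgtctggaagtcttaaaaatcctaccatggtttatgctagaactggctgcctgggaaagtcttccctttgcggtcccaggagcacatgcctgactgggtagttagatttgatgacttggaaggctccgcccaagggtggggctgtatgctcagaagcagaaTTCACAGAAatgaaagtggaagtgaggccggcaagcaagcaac

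A shorter core, AANNGAAA, which overlaps the response element, was in all 6 genes and 7 of the 9 windows, against 26.7% of genes. That motif was added after the first 2 searches and after these promoters had been read for a repeated pattern, so its count was chosen to match and nothing is read from it. Sp100 and Samd9l, which are among the genes with the largest differences below, are printed with that core in capitals, the first with its matches on the opposite strand.
Sp100, chr1:85649738-85650037, plus strand: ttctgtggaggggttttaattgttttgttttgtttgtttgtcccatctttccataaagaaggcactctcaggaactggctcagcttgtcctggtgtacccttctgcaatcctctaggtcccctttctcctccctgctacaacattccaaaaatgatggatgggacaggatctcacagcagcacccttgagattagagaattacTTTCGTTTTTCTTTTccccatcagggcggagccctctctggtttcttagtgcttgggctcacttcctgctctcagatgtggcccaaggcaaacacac
Samd9l, chr6:3399522-3399821, minus strand: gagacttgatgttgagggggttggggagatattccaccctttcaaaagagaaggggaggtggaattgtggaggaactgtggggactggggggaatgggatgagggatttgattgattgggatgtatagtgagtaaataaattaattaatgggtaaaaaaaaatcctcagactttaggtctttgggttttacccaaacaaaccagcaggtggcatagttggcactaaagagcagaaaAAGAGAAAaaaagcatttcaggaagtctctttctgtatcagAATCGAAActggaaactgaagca

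Values are linear probe set intensities, and differences are between group means of log2(intensity + 16). Levels of different genes come from different probe sets and are not compared. Genes were tested where their mean log2(intensity + 16) over the 12 arrays reached the 30th percentile of all genes. Turned back to the linear scale, that threshold is an intensity of 174.8, called the filter intensity below. Array medians ran from 273.3 to 311.8. Over the 13956 tested genes, the correlation within a group was between 0.984 and 0.996. MLL1-KO 18 h replicate 1 stood apart on the second principal component, at -9.34 against -25.2 and -24.9 for the other MLL1-KO 18 h arrays and 20.0 to 24.6 for the MLL1-KO 30 h arrays. Kmt2a had intensities of 1338, 1367 and 1584 in MLL1-KO at 30 h and 2120, 2174 and 1960 in MLL1-KO at 18 h. In WT it had 2129, 2155 and 2069 at 30 h and 2265, 2824 and 2100 at 18 h. Since the disrupted part is not stated, the probe set does not check the labels. Fibroblast markers summed to 58094 to 61354 in MLL1-KO arrays and 60503 to 64473 in WT arrays over 13 genes. Single markers went both ways: of the 11 tested, 4 were higher and 6 lower in MLL1-KO at 30 h. The receptor Pdgfra averaged 419.3 in MLL1-KO and 3297 in WT at 30 h, and the matrix protein Dcn averaged 5662 in MLL1-KO and 267.6 in WT. The 7 neural and glial markers summed to 8924 to 12101 in MLL1-KO arrays and 1227 to 1385 in WT arrays, and 4 of the 5 tested were higher in MLL1-KO at both times. No listed marker was at 0 on any array. The part of such differences between the cells in the results below was not tested.

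All 8 measured genes were lower in MLL1-KO than in WT at both times, with no overlap between arrays. Over all tested genes, 32.8% were lower without overlap at 30 h and 35.2% at 18 h. Since this comparison chose the genes, these values are a description and carry no test. The median log2 difference over the 8 genes was -3.64 at 30 h and -4.62 at 18 h, beside 0.018 and -0.030 over all tested genes. In bulk RNA, fewer expressing cells and less RNA per cell cannot be told apart.

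Pml, the scaffold of the nuclear bodies, had intensities of 2986, 2960.1 and 2805 in MLL1-KO at 30 h, against 3819, 4067 and 3857 in WT at 30 h. At 18 h it had 2792, 2149 and 2034 in MLL1-KO, against 3576, 3913 and 3767 in WT. The MLL1-KO arrays were all below the WT arrays, yet kept 74.5% of the WT mean at 30 h and 62.0% at 18 h. The log2 difference was -0.42 (SE 0.092) at 30 h and -0.70 at 18 h, the smallest of the 8.

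Sp100, a chromatin-binding resident of the same bodies, had 22.1, 41.1 and 52.6 in MLL1-KO at 30 h, against 4895, 5355 and 4647 in WT at 30 h. The 18 h intensities were 29.7, 30.0 and 23.6 in MLL1-KO, against 4915, 5633 and 5193 in WT. Sp100 was below the filter intensity of 174.8 on every MLL1-KO array, and no MLL1-KO array came near the WT arrays. The log2 difference was -6.55 (SE 0.15) at 30 h and -6.91 at 18 h, on a scale that understates the change of dim genes. A second probe set, annotated to Sp100 and 4 other genes, averaged 35.6 ± 22.3 in MLL1-KO and 5685 ± 473 in WT at 30 h (SD, n = 3 each).

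Sp110, a relative of Sp100 in the same chromosomal cluster, was only on 6 probe sets shared with other genes, 2 of which hold identical values. That pair, listed with 1 other gene, had 28.3, 36.4 and 39.4 in MLL1-KO at 30 h, against 507, 563.5 and 460.9 in WT. The MLL1-KO arrays were lower on all 6 probe sets. The set with the smallest difference, listed with 4 other genes, averaged 297.7 in MLL1-KO and 512.7 in WT at 30 h. What Sp110 itself contributes to any of them cannot be told apart. Sp140, the gene between Sp110 and Sp100, lay below the intensity filter and averaged 52.5 in MLL1-KO and 383.7 in WT at 30 h.

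Ifi203, a DNA-binding protein of the HIN-200 family, had 2565, 2810.4 and 2559.9 in MLL1-KO at 30 h, against 7337, 8096 and 6326 in WT at 30 h. At 18 h it had 2331, 1724 and 1831 in MLL1-KO, against 7178, 8791 and 7477 in WT. It was lower in MLL1-KO but remained well above the filter. The log2 difference was -1.44 (SE 0.11) at 30 h and -1.99 at 18 h.

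Ifi204, of the same family and studied in mouse macrophages as a DNA sensor, shared its only probe set with Ifi211. That probe set had 4578, 5200.4 and 5013 in MLL1-KO at 30 h, against 9631, 10118 and 8367 in WT. The 18 h intensities were 4070.1, 2749 and 3364 in MLL1-KO, against 8728, 10299 and 9486 in WT. It was lower in MLL1-KO at both times without overlap, and the 2 genes cannot be told apart on it.

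Ifi27, a small hydrophobic protein, had 477.3, 406.1 and 372.4 in MLL1-KO at 30 h, against 2538, 2615 and 3233 in WT at 30 h. At 18 h it had 588.9, 402.6 and 468.2 in MLL1-KO, against 2261, 2191 and 2118 in WT. It was the only one of the 8 whose log2 difference was larger at 30 h, with -2.69 (SE 0.13) at 30 h and -2.15 at 18 h.

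Ifi35, a leucine-zipper protein that pairs with Nmi, had 382.1, 287.5 and 266.1 in MLL1-KO at 30 h, against 3656, 3714 and 3248 in WT at 30 h. The 18 h intensities were 278.4, 275.3 and 325.3 in MLL1-KO, against 2995, 3459 and 3787 in WT. The log2 differences at both times lay within 1 SE of each other, -3.45 (SE 0.12) at 30 h and -3.47 at 18 h.

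Rtp4, a chaperone of receptors with antiviral activity, had 47.7, 56.6 and 56.8 in MLL1-KO at 30 h, against 5969, 6048 and 5891 in WT at 30 h. At 18 h it had 32.1, 26.5 and 31.5 in MLL1-KO, against 6472, 5500.4 and 5892 in WT. It was below the filter intensity on every MLL1-KO array, at 0.899% of the WT mean at 30 h and 0.505% at 18 h. The log2 difference was -6.43 (SE 0.090) at 30 h and -7.02 at 18 h.

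Parp14, which attaches single ADP-ribose units to proteins, had 83.2, 85.0 and 96.5 in MLL1-KO at 30 h, against 3836, 3929 and 3409 in WT at 30 h. The 18 h intensities were 76.8, 48.8 and 44.8 in MLL1-KO, against 3950.3, 4129 and 3724 in WT. The log2 difference was -5.17 (SE 0.13) at 30 h and -5.79 at 18 h.

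Samd9l, a protein that restrains poxvirus growth and cell growth, had 352.3, 368.9 and 293.1 in MLL1-KO at 30 h, against 5241, 5443 and 4443 in WT at 30 h. At 18 h it had 161.5, 42.8 and 63.3 in MLL1-KO, against 4743, 5523 and 5068 in WT. Among the 8 it had the largest gap between its differences at the 2 times, -3.84 (SE 0.26) at 30 h and -5.77 at 18 h. The MLL1-KO means of Sp100, Rtp4 and Parp14 at both times, and of Samd9l at 18 h, lay below the filter intensity. These genes passed the filter through their WT arrays. No detection calls were used, so background and RNA cannot be told apart in these low values.

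**Figure D1:**
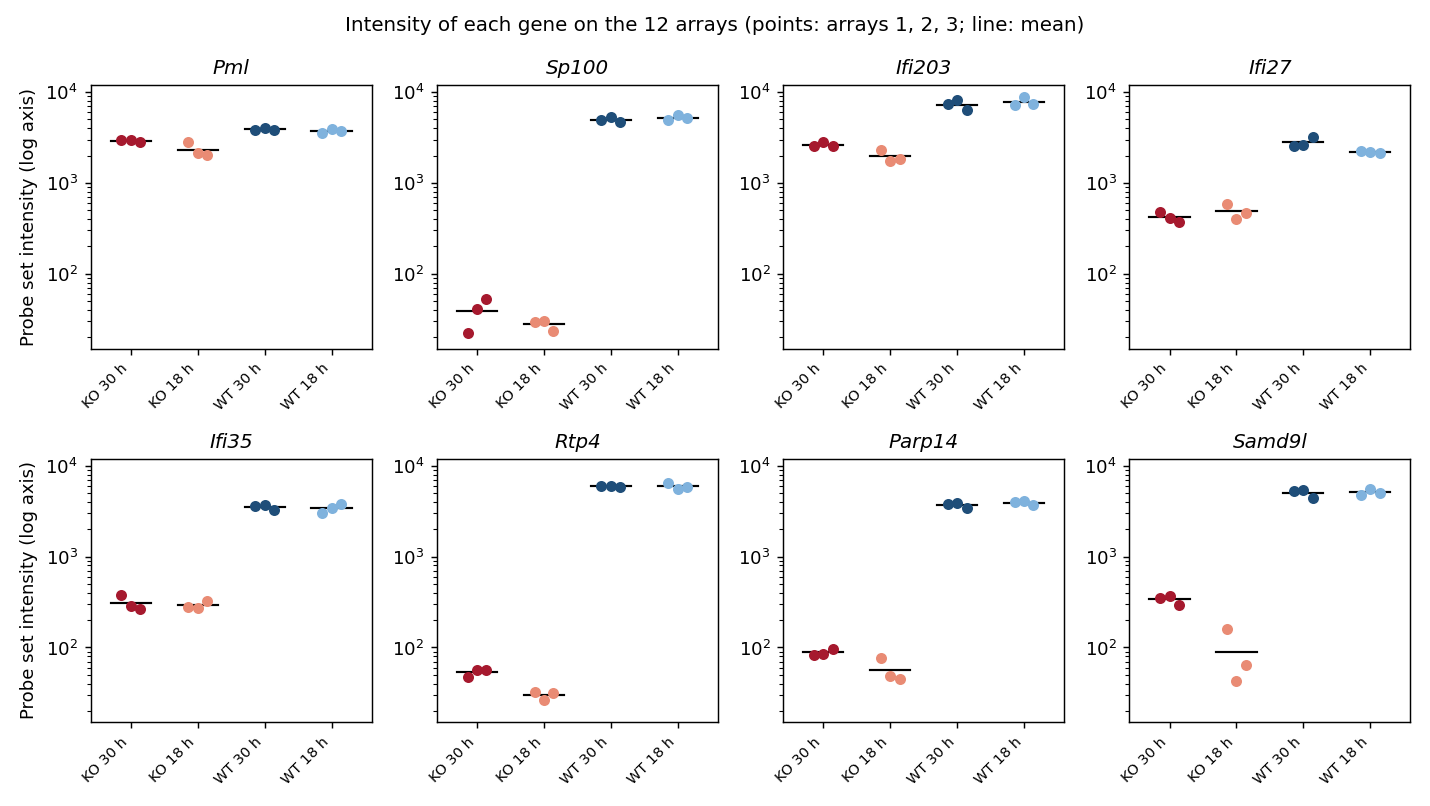
Probe set intensity (log axis) of the 8 measured genes on each of the 12 arrays, with points for arrays and a line for the group mean of 3. All MLL1-KO points lie below all WT points in every panel; Pml shows the smallest gap, and Sp100 and Rtp4 lie under 60 in MLL1-KO.

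**Figure D2:**
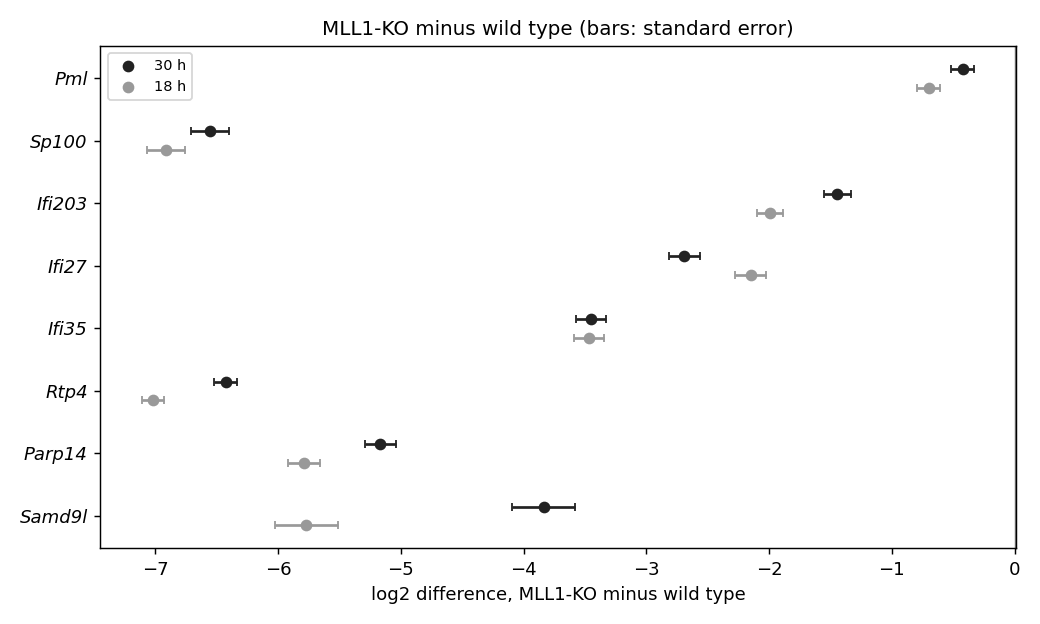
Log2 difference, MLL1-KO minus WT, at 30 h (black) and 18 h (grey), with the standard error of the fit over 12 arrays as bars. The values run from -0.42 for Pml at 30 h to -7.02 for Rtp4 at 18 h.

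The signalling chain above these genes was read from lists chosen with the earlier results known. In that fit 28.6% of all tested genes were lower and 24.3% higher in MLL1-KO at 30 h, and 33.8% and 26.3% at 18 h. Of 19 listed interferon ligand genes, 15 were on the array and 4 passed the filter. Ifnb1 was among those left out, with means of 124.0 in MLL1-KO and 118 in WT at 30 h. Of the 4 tested ligand genes, 1 was lower at both times, Ifnz. Its log2 difference was -1.70 at 30 h and -1.89 at 18 h (limma adjusted p = 5.16e-09 and 1.07e-09). Of 11 receptors and transducers, 6 were lower and 1 higher at each time. Stat2 had a log2 difference of -3.62 at 30 h and -3.23 at 18 h, and Irf9, its DNA-binding partner, -3.07 and -3.44. The kinase gene Jak2 was higher, by 0.77 at 30 h and 0.66 at 18 h. Of 6 tested Irf genes, 3 were lower at each time, and 1 at 30 h and 2 at 18 h were higher. Irf7, which amplifies interferon production, differed by -5.70 at 30 h and -5.48 at 18 h. Of 11 inhibitors, 5 were lower and 2 higher at 30 h, and 4 lower and 3 higher at 18 h. Usp18, which blocks the type I receptor and is itself interferon-induced, differed by -7.00 at 30 h and -6.94 at 18 h. The MLL1-KO means of Irf7 (47.4 at 30 h and 63.5 at 18 h) and Usp18 (64.3 and 60.1) lay below the filter intensity. Both genes passed the filter through WT, so RNA and background cannot be told apart in their MLL1-KO values. Ptpn1, a phosphatase, was higher by 0.44 at 30 h and 0.47 at 18 h.

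Partners of the Pml bodies and genes of the SUMO pathway differed in both directions. Of 24 tested, 10 were lower and 5 higher in MLL1-KO at 30 h, and 12 lower and 4 higher at 18 h. Daxx, a histone H3.3 chaperone held in these bodies, was lower by a log2 difference of -1.84 at 30 h and -1.98 at 18 h. Blm, a DNA helicase found there, was higher by 1.01 at 30 h and 1.35 at 18 h. The list's median was -0.10 at 30 h and -0.22 at 18 h.

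The 6 tested HIN-200 and Aim2-like relatives of Ifi203 were lower in MLL1-KO at both times. Of these, 3 had MLL1-KO means below the filter intensity at both times and 1 at 1 time, so they passed the filter through WT. That filter also left out 3 listed relatives that were on the array. Ifi206 differed by -4.91 at 30 h and -5.43 at 18 h, and Ifi207, which neighbours Ifi204, by -4.52 and -5.04. These differences were larger than those of Ifi203 itself; that gap between genes was not tested. Ifi202b, which lies next to Ifi203 and was singled out after its values were seen, went the other way. It had 1313, 1581 and 1484 in MLL1-KO at 30 h, against 11.6, 11.1 and 14.6 in WT at 30 h. The 18 h intensities were 1014, 976.7 and 1176 in MLL1-KO, against 1.42, 0.027 and 5.99 in WT. It was bright in all MLL1-KO arrays and at the dim end in all WT arrays, and its mean log2 value over 12 arrays fell below the filter. In the fit without that filter its log2 difference was 5.70 at 30 h and 5.87 at 18 h. Since these values singled it out, they are a description and carry no test. As background, Ifi202b is known to differ in expression between inbred mouse strains, and the labels name no strain. Whether the MLL1-KO and WT cells differ in strain was not tested.

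Of 15 tested relatives of Parp14 and its partner gene Dtx3l, 7 were lower and 5 higher in MLL1-KO at 30 h, and 8 lower and 5 higher at 18 h. Dtx3l, a ubiquitin ligase, differed by -4.74 at 30 h and -5.23 at 18 h, and Parp9, which binds it, by -4.46 and -5.48. Tiparp was higher, by 0.89 at 30 h and 1.09 at 18 h. Parp14, Dtx3l and Parp9 are neighbours on the chromosome, and the gene on the other side of Parp14, Hspbap1, differed by -0.69 at 30 h and -0.98 at 18 h. Ifi27l2a, beside Ifi27, differed by -5.62 at 30 h and -5.91 at 18 h, while Ifi27l2b, on its other side, did not pass (0.11 and 0.10, adjusted p = 0.380 and 0.420). Nmi, the partner of Ifi35, differed by -1.70 at 30 h and -2.32 at 18 h. The MLL1-KO means of Dtx3l (142.1 at 30 h and 101.1 at 18 h) and Parp9 (118.8 and 51.4) lay below the filter intensity. So did those of Ifi27l2a (34.3 and 31.2) and Nmi (157.3 and 101.9). These genes passed the filter through WT, so RNA and background cannot be told apart in their MLL1-KO values. Vat1, the gene after Ifi35, was higher by 0.47 at 30 h and 0.38 at 18 h.

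**Figure D3:**
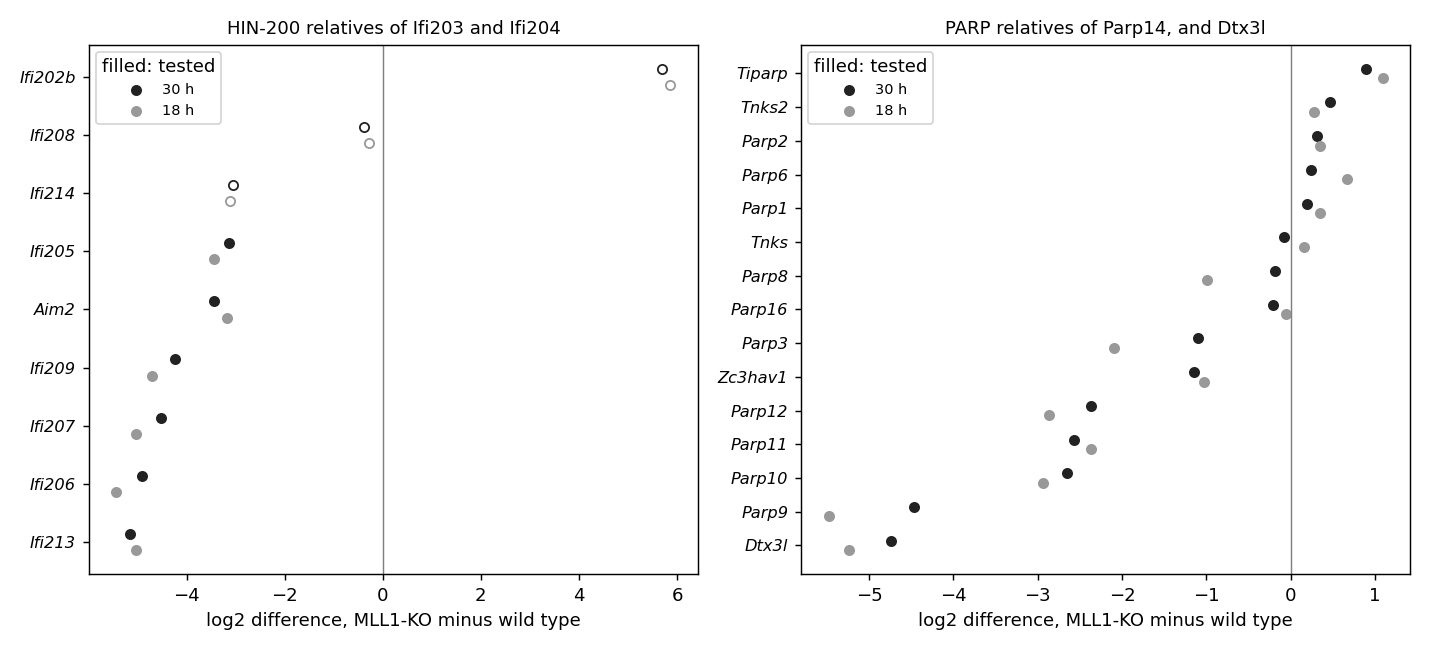
Log2 difference, MLL1-KO minus WT, at 30 h (black) and 18 h (grey) for HIN-200 relatives of Ifi203 (left) and for Parp14 relatives with Dtx3l (right); hollow points lay below the filter. Ifi202b is at 5.70 and 5.87 while the 6 tested HIN-200 genes are all below 0, and the Parp14 relatives lie on both sides of 0.

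Between 30 h and 18 h in MLL1-KO, 4 of the 7 genes tested rose and none fell, but 2 of the 4 were dim in MLL1-KO. Over all tested genes 20.9% rose, 18.4% fell and 39.3% changed in either direction. The same MLL1-KO arrays took part in choosing the genes, so these calls are not independent of that choice. Of the 7, 4 had MLL1-KO means above the filter intensity at both times, and 2 of those rose. Ifi203 was higher at 30 h by a log2 difference of 0.44 (SE 0.11, limma adjusted p = 0.00429) and Pml by 0.34 (SE 0.092, adjusted p = 0.00761). Ifi27 (-0.20, adjusted p = 0.241) and Ifi35 (0.07, adjusted p = 0.697) did not pass.

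Sp100, Rtp4 and Parp14 were below the filter intensity on every MLL1-KO array and entered this test only through the bright WT arrays. Within these low values Rtp4 was higher at 30 h by 0.60 (SE 0.090, adjusted p = 8.22e-05) and Parp14 by 0.54 (SE 0.13, adjusted p = 0.00304), and Sp100 did not pass (0.28, adjusted p = 0.174). Sp100 passed without MLL1-KO 30 h replicate 1, at 0.52 (adjusted p = 0.00223). Whether such differences are of RNA or of background cannot be told apart. With the filter set on the compared arrays alone these 3 were not tested, and the 2 genes called were Ifi203 and Pml. For all 4 called genes the MLL1-KO arrays at 30 h lay above those at 18 h without overlap, as 24.3% of all tested genes did.

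Samd9l averaged 338.1 ± 39.8 in MLL1-KO at 30 h and 89.2 ± 63.5 in MLL1-KO at 18 h (SD, n = 3 each), a ratio of 3.79 between the means. Having been chosen for this rise, it is described without a test: the log2 difference was 1.91 (SE 0.26). Its 18 h arrays varied by 71.1% of their mean, and replicate 1 held the highest value. That array was the highest of its group in 6 of the 8 genes. Without it the Samd9l difference was 2.37, and the 4 calls above held. Macrophage and blood markers summed to 2612 to 2798 in MLL1-KO at 30 h and 3122 to 4764 in MLL1-KO at 18 h. Of the 6 tested markers, Cd68 was lower at 30 h, with means of 804.9 at 30 h and 2305 at 18 h, Cd14 was higher, with 282.0 and 185.3, and 4 did not pass. Their part in the result was not tested.

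In WT none of the 8 genes was called between 30 h and 18 h, where 3.96% of all tested genes were called by limma. At an unadjusted p under 0.05 there was 1, Ifi27. Its log2 difference was 0.34 (SE 0.13, adjusted p = 0.148), and its WT arrays at 30 h all lay above those at 18 h, as did 13.2% of all tested genes. In a fit of the WT arrays alone it passed (adjusted p = 0.0311). The other 7 lay between -0.11 for Ifi203 and 0.06 for Pml, with 95% intervals of -0.34 to 0.12 and -0.13 to 0.26. Samd9l had the widest interval, -0.57 to 0.52 around -0.02.

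**Figure D4:**
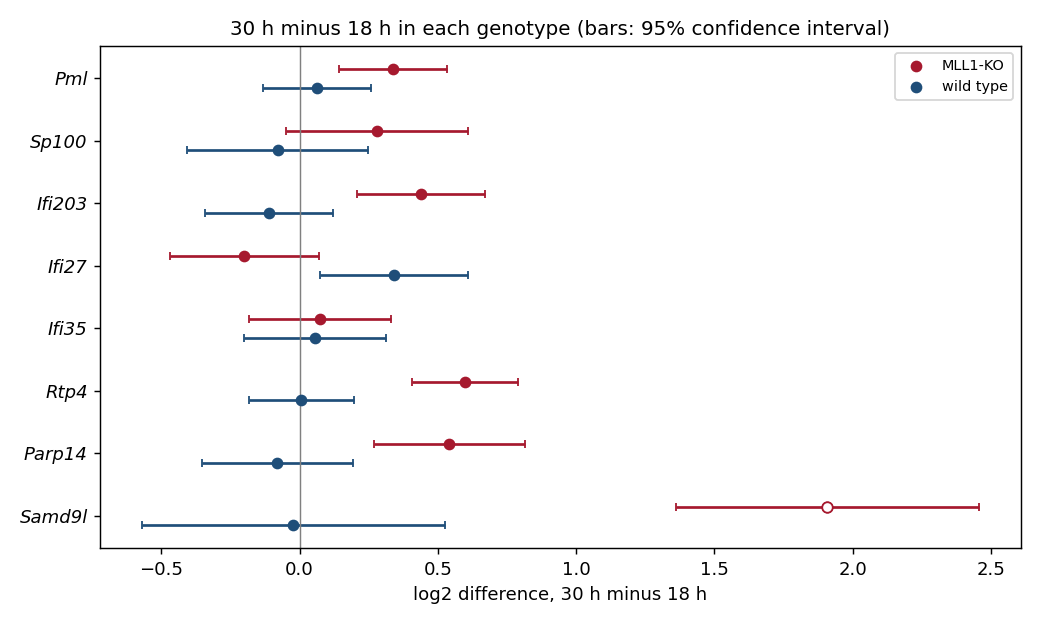
Log2 difference, 30 h minus 18 h, in MLL1-KO (red) and in WT (blue) with 95% confidence intervals from the fit over 12 arrays; the hollow point marks Samd9l in MLL1-KO, which was chosen for this change. Pml, Ifi203, Rtp4 and Parp14 lie above 0 in MLL1-KO, the last 2 on values below the filter intensity, and Ifi27 lies at -0.20 in MLL1-KO and 0.34 in WT.

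The time effect in MLL1-KO minus that in WT passed for 4 of the 7 genes tested, of which Rtp4 and Parp14 were dim in MLL1-KO. Over all tested genes 20.3% passed, 10.2% higher and 10.1% lower. This contrast equals the genotype difference at 30 h minus that at 18 h. Those differences chose the genes, so the calls are not independent of that choice. The contrast was positive for Ifi203 (0.55), Rtp4 (0.59) and Parp14 (0.62) and negative for Ifi27 (-0.54), with limma adjusted p = 0.0198, 0.00446, 0.0236 and 0.0424. Pml (0.28, adjusted p = 0.150), Sp100 (0.36, adjusted p = 0.282) and Ifi35 (0.02, adjusted p = 0.959) did not pass. Leaving out single arrays gave between 1 and 5 calls, so the number rests on single arrays. It was 1 without WT 18 h replicate 2 or WT 30 h replicate 3. It was 2 without MLL1-KO 30 h replicate 2 or 3, MLL1-KO 18 h replicate 2 or 3, or WT 18 h replicate 1. Without MLL1-KO 18 h replicate 1, Pml passed (0.42, adjusted p = 0.00198) and Ifi27 did not (-0.40, adjusted p = 0.0646). Rtp4 and Parp14 were tested on MLL1-KO values that all lie below the filter intensity, where RNA and background cannot be told apart. For Samd9l the difference was 1.93, as a description.

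Among the related genes, time changes in MLL1-KO ran both ways, beside 20.9% of all tested genes that rose and 18.4% that fell. Of the 24 Pml partners and SUMO genes 11 rose and 3 fell at 30 h, with Crebbp, an acetyltransferase, at 0.81 and Trim24 at -0.65. These 24 were all above the filter intensity in MLL1-KO. Of the 6 HIN-200 relatives 3 rose and 1 fell, and of the 2 above that intensity at both times both rose, Ifi207 by 0.40. Of the 15 Parp relatives 5 rose and 4 fell, and of the 13 above it 3 rose and 4 fell, with Parp3 at 0.87 and Parp6 at -0.66. Ifi209 (0.45), Aim2 (-0.44), Parp9 (1.01), Dtx3l (0.47) and Nmi (0.56) were called on MLL1-KO means at or below about that intensity, having passed the filter through WT. Irf9 rose by 0.42 and Stat2 fell by 0.53 on the log2 scale. In WT none of the 80 tested genes of these 8 lists was called with limma between 30 h and 18 h, where 3.96% of all tested genes were, and 5 had an unadjusted p under 0.05. Ifi202b, below the filter, had a log2 difference of 0.63 between 30 h and 18 h in WT in the fit without a filter. This gene was singled out after its values were seen, so the difference is a description and carries no test. It rests on the dim WT values given above, in which RNA and background cannot be told apart.

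The tested gene outside the 10 whose log2 values followed each gene most closely over the 12 arrays was found by Pearson correlation. The arrays share the large genotype difference, so the coefficients are all high and are given as a description. Parp14 was followed by its neighbour Dtx3l (r = 0.999), Ifi35 by the chemokine gene Cxcl10 (0.998) and Rtp4 by Il1rn, an interleukin receptor antagonist (0.999). For Pml the nearest was Pgghg (0.994), for Ifi203 Ofd1 (0.997), for Ifi27 Tpst1 (0.998) and for Samd9l Gas1 (0.997). Sp100 was followed by Aspn, an extracellular matrix protein gene, which averaged 23.5 in MLL1-KO and 5022 in WT at 30 h. Over the 6 MLL1-KO arrays alone, Samd9l was followed by Pdzd4 (0.999), Chac2 (0.998) and Carm1 (0.998).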

How the data were processed

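RNA of 12 samples was measured on Affymetrix arrays. The deposited values are linear intensity per probe set; the submitters' processing notes name Affymetrix Expression Console 1.1 and PLIER 2.0. How the authors normalized between arrays is not given in the sources consulted. Of 35557 probe sets, 21789 have 1 gene symbol in the platform annotation, 1621 several and 12147 none; 21698 were matched to RefSeq (GRCm38.p6), used for names, gene order and promoters.

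Groups came from the sample titles. The deposited intensity was turned into log2(intensity + 16). Each gene was represented by its single-symbol probe set of highest mean, and the 13956 of 19938 genes at or above the 30th percentile (log2 7.58) were tested. With limma 3.58.1 (R 4.3.3), 4 group means were fitted to all arrays (lmFit, eBayes with trend, 8 residual and 7.98 prior degrees of freedom). Tests are two-sided, with Benjamini-Hochberg adjustment over all genes tested, called under 0.05. The number of arrays limits the precision.

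The members and lists were chosen with earlier results of these data known. Named genes were the 10 genes, Kmt2a, up to 2 called rises and 2 called falls of largest size per list and comparison, of which a selection is printed, and the nearest gene by correlation. Neighbouring genes, genes below the filter, marker genes named singly and the motifs were added after values were seen. Same-numbered replicates of different groups deviated with correlations of -0.46 to 0.45, over 0.1 in 4 of 18 pairs, so the numbers were not taken as pairing.

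The alternatives were offsets of 1 and 64, 3 other filters, 3 scalings, no trend, robust eBayes, array weights, only the groups compared, mean probe sets, a replicate block and each array left out. Array weights used limma's gene-by-gene method, because the default did not converge; this was chosen after that warning. The fit was tested on simulated data with known changes before use.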

Additional observations from a re-analysis of the deposited data

Results flagged for a closer look

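For 4 genes the change between 30 h and 18 h differed between the genotypes in a direct test of that difference (MLL1-KO minus WT, limma adjusted over all genes). That test is not independent of the genotype differences at 30 h and 18 h, which chose the genes. The difference of time effects was 0.55 on the log2 scale for Ifi203, -0.54 for Ifi27, 0.59 for Rtp4 and 0.62 for Parp14. Rtp4 and Parp14 lay below the filter intensity of 174.8 on every MLL1-KO array and were tested only because their WT arrays were bright. Over 26 alternatives Rtp4 ran from 0.32 to 0.81 and lost its call in 1, and Parp14 ran from 0.42 to 0.81 and lost its call in 6. Ifi203 ran from 0.45 to 0.68 and lost its call in 4, and Ifi27 ran from -0.67 to -0.37 and lost its call in 11. The cause of these differences was not tested.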

How the results depend on the processing

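The 8 genes were chosen for being lower in MLL1-KO, and most alternatives cannot change whether arrays overlap, so their 8 of 8 without overlap under each alternative is no sign of stability. Between 30 h and 18 h in MLL1-KO, 4 genes were called in the fit reported and 4 to 5 without single arrays. With the filter on the arrays compared it was 2, since Rtp4 and Parp14 then lay below the filter. In WT the count was 0 without any single array and 1 with only the groups compared. Over all genes the WT time comparison gave 553 calls, 997 with only the groups compared, 1642 with array weights and 158 to 1035 without single arrays. The difference of time effects gave 2838 calls over all genes, 5249 with array weights and 1899 to 4142 without single arrays; of the 7 genes it called 4, and 1 to 5 without single arrays. Ifi202b, below the filter and uncalled in this comparison, had a difference of time effects of -0.17 that reversed to 0.24 with an offset of 64. The cause of these shifts was not tested. With an offset of 64 the Sp100 and Rtp4 differences at 30 h were -5.62 and -5.68, and with 1 they were -7.05 and -6.77. Samd9l in MLL1-KO ran from 1.46 to 2.45. With the replicate number as a block, 4, 0 and 4 of the genes were called for time in MLL1-KO, time in WT and their difference, and 5375, 485 and 2725 genes over the table. Counts over the gene lists moved by over 1.5 times in 55 of their alternatives and did not in 1037. The mean of all probe sets was run and left the 8 genes at their own values, since each has 1 single-gene probe set; a separate run on further probe sets of these genes therefore had nothing to use.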
